A study of Mus musculus with 13 samples.

Results

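Smooth muscle cells wrap arteries and larger veins, and pericytes sit on capillaries. Together they are called mural cells, and in white adipose tissue (WAT) they control blood flow through the depot. Smooth muscle cells contract with a set of actin, myosin and regulatory proteins whose genes share a control element, the CArG box, bound by serum response factor (SRF) together with its coactivator myocardin. Pericytes express little of this contractile set and are usually recognized by *Rgs5* and surface proteins such as *Pdgfrb* and *Cspg4*. The genes described here are 7 contractile smooth muscle genes, *Acta2*, *Tagln*, *Myh11*, *Cnn1*, *Myl9*, *Lmod1* and *Des*, and the pericyte gene *Rgs5*. They were chosen by symbol, matched to their Ensembl mouse identifiers, and all 8 were found among the 33618 genes of the deposited count table. All 8 also passed the filter on low counts, which left 16753 genes.

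The libraries came from whole parametrial WAT (pmWAT) of female mice. The 7 control mice were *Lmna* fl/fl, with loxP sites around exons 10 and 11 of *Lmna* and no Cre. The 6 *Lmna* iADKO mice carried the same floxed alleles and 1 copy of Adipoq-CreERT2, whose adiponectin promoter is active in adipocytes, so the deletion was not aimed at smooth muscle cells or pericytes. Mice of both groups received 50 mg/kg tamoxifen on 5 days at 12 to 14 weeks of age and were dissected 2 weeks posttamoxifen. The comparison asks whether mural genes of the depot differed once adipocytes had been targeted.

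The targeted gene, *Lmna*, did not fall in the libraries that carry the iADKO label. Counts per 1e+06 reads, normalized with edgeR's TMM method (CPM), averaged 84.7 ± 7.51 in the control libraries (SD, n = 7) and 96.7 ± 11.5 in the iADKO libraries (SD, n = 6), with a log2 fold change of 0.19 (SE 0.079, edgeR adjusted p = 0.0785). The counts cover the whole gene and cells of every type, so every direction given below rests on the labels. Between 18854223 and 19776491 reads per library were counted on genes. The labels set no batches apart, but the numbers in the library names form separate runs, described below. In bulk tissue, fewer cells of a type and less RNA per cell cannot be told apart. All 10 listed adipocyte markers were lower in iADKO and 7 of 9 macrophage markers were higher at an adjusted p under 0.05. Of all genes tested, 16.3% were lower and 14.1% higher. By mean log2 CPM of these lists, the genotypes overlapped. The adipocyte mean was 10.8 in fl/fl 5, the lowest of its genotype, and 10.9 in iADKO 6, the highest of its genotype. The macrophage mean was 8.48 in fl/fl 5 and 7.91 in iADKO 6.

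The CArG box has 10 bases, CC, then 6 bases that are each A or T, then GG, and it reads the same on both strands. The sequence of GRCm39 was searched for exact boxes from 2000 bases before to 2000 bases after the start of each gene's canonical GENCODE vM39 transcript. These stretches, each with 10 bases on either side and the box in capitals, show where the members carry this shared element. They are written 5′ to 3′ on the strand of the gene.
Acta2, chr19:34231678-34231707, minus strand: gtgtgttttaCCTAATTAGGaaatgctccc
Tagln, chr9:45847449-45847478, minus strand: agggtcctgcCCATAAAAGGtttttcccgg
Tagln, chr9:45847326-45847355, minus strand: gtgtctttccCCAAATATGGagcctgtgtg
Myh11, chr16:14110175-14110204, minus strand: gcctcgacttCCTTTTATGGcctgagtggt
Cnn1, chr9:22011412-22011441, plus strand: agccgccgcgCCTTATAAGGcggccttggg
Myl9, chr2:156617213-156617242, plus strand: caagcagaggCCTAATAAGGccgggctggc
Rgs5, chr1:169484038-169484067, plus strand: tgaccctcaaCCATTAAAGGgagtaaaact

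At least 1 exact box was in this window for 6 of the 8 genes, 5 of the 7 smooth muscle genes and *Rgs5*, and *Tagln* held 2. Among 21757 protein-coding genes, 18.5% held a box in a window of the same length, and 2.03% held 2 or more. The 7 smooth muscle genes were picked as SRF-dependent, so a share above that of all genes was built into the choice. Of 18 other contractile smooth muscle genes, 5 held a box (27.8%), and of 16 pericyte and other mural genes 3 did (18.8%). The first *Tagln* box begins at position -64 relative to the annotated start and the *Myh11* box at position -958. The second *Tagln* box and the *Myl9* box lie in the annotated first exon, and those of *Acta2*, *Cnn1* and *Rgs5* lie beyond it, beginning at positions 1294, 911 and 1013. No exact box was in the windows of *Lmod1* and *Des*, which says only that these letters are not there. In a shorter window, from 250 bases before to 50 after the start, 1 of the 8 genes (*Tagln*) held a box, against 1.54% of all starts, and the longer window was chosen after that search. A match is a description of the sequence and was not tied to any binding measured here.

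Each of the 7 contractile genes had a higher mean in iADKO than in fl/fl, by 1.46- to 2.44-fold, and *Rgs5* had a lower one, but none of the 8 passed an adjusted p of 0.05 in edgeR's quasi-likelihood test, against 30.5% of all genes tested (14.1% higher and 16.3% lower in iADKO). At an unadjusted p under 0.05, 6 of the 8 were higher and none was lower, where 21.4% of all genes were higher and 21.2% lower. The Wald test of DESeq2 called 2 of the 8 higher, *Cnn1* (adjusted p = 0.032) and *Des* (adjusted p = 0.0304). Of 18621 genes with an adjusted p, it called 2458 higher and 3221 lower. The median log2 fold change of the 8 was 0.62, and that of all genes tested was 0.03. For every one of the 8 the values of the genotypes overlapped, and 6.64% of all genes did not overlap. The plot of the 8 genes by library shows what lies behind these means, since the 6 iADKO libraries did not move together.

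**Figure D1:**
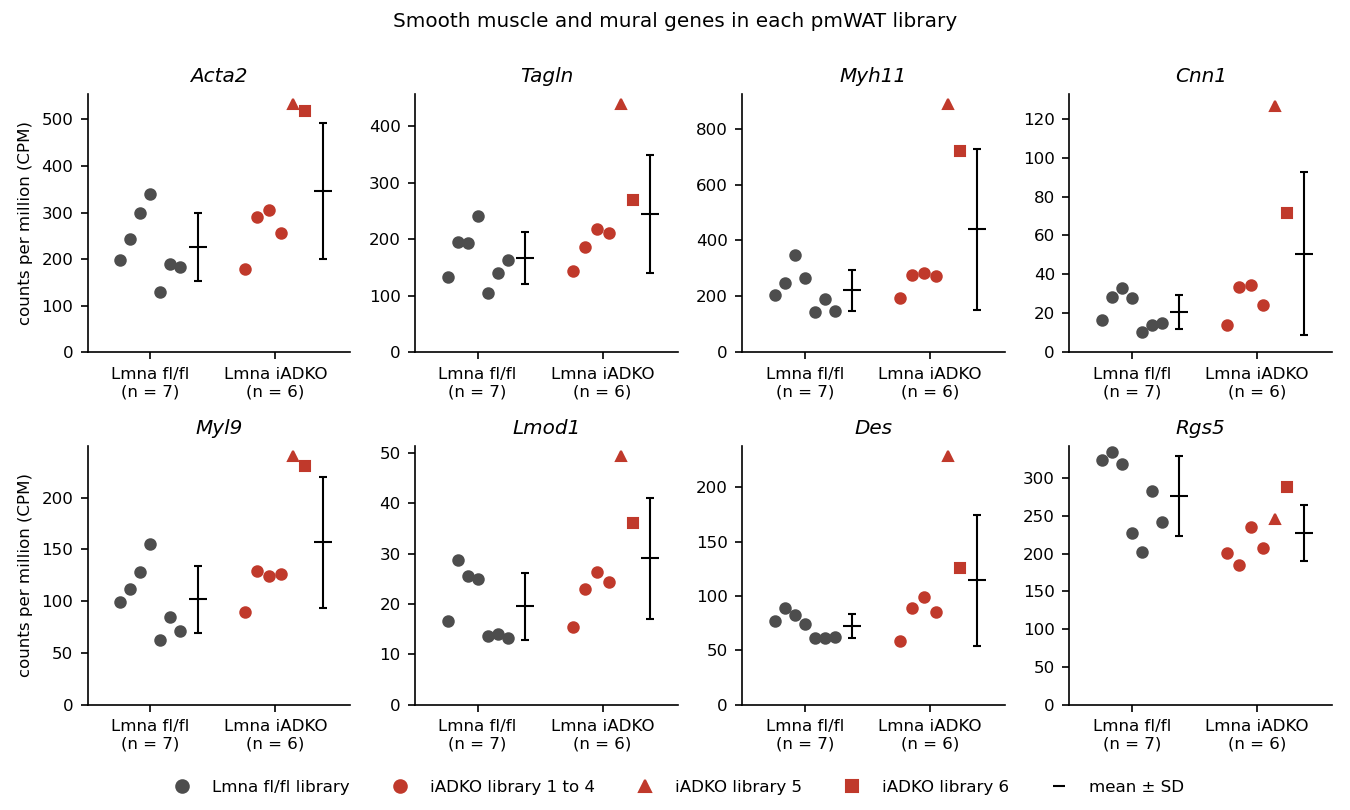
Each panel plots 1 gene in TMM-normalized CPM, from 0, with 1 point per pmWAT library in replicate order from left to right and the mean ± SD beside each genotype (7 *Lmna* fl/fl, 6 *Lmna* iADKO). In the 7 smooth muscle genes iADKO library 5 (triangle) and library 6 (square) stand above all others, and the other 4 iADKO libraries lie among or close to the fl/fl libraries, while *Rgs5* shows no such pattern.

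*Acta2* (ENSMUSG00000035783, chr19:34217737-34232990, minus strand) encodes smooth muscle alpha-actin, the thin filament protein of the contractile cell. Its level was 129 CPM at the lowest, 197 at the median and 339 at the highest in fl/fl, and 179, 297 and 534 CPM in iADKO. The 2 highest of all 13 libraries were iADKO 5 at 534 CPM and iADKO 6 at 519 CPM, and the other 4 iADKO libraries, at 179 to 305 CPM, lay within the fl/fl range. The log2 fold change was 0.62 (SE 0.28, adjusted p = 0.105).

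*Myh11* (ENSMUSG00000018830, chr16:14012399-14109236, minus strand) encodes the smooth muscle myosin heavy chain, the motor that pulls on that actin and a specific marker of the differentiated smooth muscle cell. It was at 143, 204 and 350 CPM (lowest, median, highest) in fl/fl and at 196, 280 and 886 CPM in iADKO. Again iADKO 5 (886 CPM) and iADKO 6 (721 CPM) lay apart, and the highest of the other 4 was at 283 CPM, below the highest fl/fl library. The log2 fold change was 0.99 (SE 0.37, adjusted p = 0.0586). *Myl9* (ENSMUSG00000067818, chr2:156617084-156623579, plus strand), the regulatory light chain whose phosphorylation switches this motor on, was at 62.7, 98.8 and 155 CPM in fl/fl and at 89.5, 128 and 241 CPM in iADKO. Its iADKO 5 and 6 libraries were close to each other, at 241 and 231 CPM, and its log2 fold change was 0.62 (SE 0.27, adjusted p = 0.0928).

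The regulators of the filaments included the gene with the largest difference. *Cnn1* (ENSMUSG00000001349, chr9:22010512-22020926, plus strand) encodes calponin 1, which binds actin and damps myosin's activity. Its lowest, median and highest values were 10.3, 16.4 and 33.0 CPM in fl/fl and 14.1, 34.0 and 127 CPM in iADKO. The value of 127 CPM was that of iADKO 5, iADKO 6 was at 71.3 CPM, and no other library of either genotype exceeded 34.4 CPM. The log2 fold change was 1.29 (SE 0.47, adjusted p = 0.056). *Tagln* (ENSMUSG00000032085, chr9:45840909-45847404, minus strand), the calponin-related actin-bundling protein transgelin or SM22, was at 105, 163 and 241 CPM in fl/fl and at 143, 214 and 440 CPM in iADKO. Here iADKO 5 stood apart at 440 CPM, whereas iADKO 6, at 269 CPM, was close to the highest fl/fl library. The log2 fold change of *Tagln* was 0.54 (SE 0.25, adjusted p = 0.112).

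*Lmod1* (ENSMUSG00000048096, chr1:135252509-135295907, plus strand) encodes leiomodin 1, which starts new actin filaments in smooth muscle. It was at 13.2, 16.7 and 28.7 CPM in fl/fl and at 15.3, 25.5 and 49.5 CPM in iADKO, with a log2 fold change of 0.58 (SE 0.28, adjusted p = 0.129). *Des* (ENSMUSG00000026208, chr1:75320511-75345223, plus strand) encodes desmin, an intermediate filament protein that smooth muscle shares with skeletal muscle and pericytes. *Des* was at 61.3, 74.4 and 88.8 CPM in fl/fl and at 58.4, 93.9 and 229 CPM in iADKO. Its highest value was again iADKO 5, iADKO 6 followed at 126 CPM, and its log2 fold change was 0.66 (SE 0.26, adjusted p = 0.069). The lowest of the 13 *Des* values was also an iADKO library, replicate 1 at 58.4 CPM.

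*Rgs5* (ENSMUSG00000026678, chr1:169483036-169524887, plus strand) encodes a GTPase-activating protein that dampens G protein signaling in pericytes. Its lowest, median and highest values were 202, 283 and 335 CPM in fl/fl and 185, 222 and 289 CPM in iADKO. The 3 highest libraries were all fl/fl and the 2 lowest were iADKO, and the genotypes overlapped between 202 and 289 CPM. The log2 fold change was -0.28 (SE 0.13, adjusted p = 0.123). In contrast with the contractile genes, iADKO 5 (245 CPM) and iADKO 6 (289 CPM) were inside the fl/fl range, although they were the highest of the 6 iADKO libraries.

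For the 7 contractile genes, iADKO 5 was the highest of the 13 libraries in 7 and iADKO 6 the second highest in 7. The remaining iADKO libraries, replicates 1 to 4, lay within the fl/fl range for 6, 6, 5 and 7 of the 7 genes. Among fl/fl libraries, replicate 5 was the lowest of the 13 for 5 of the 7 and lowest or second lowest for all 7. Without iADKO 5 and 6, a choice made after seeing these values, the log2 fold changes of the 7 genes ranged from 0.18 for *Tagln* to 0.36 for *Cnn1*, with adjusted p-values between 0.338 for *Des* and 0.598 for *Lmod1*. *Rgs5* was then at -0.41 (SE 0.14, adjusted p = 0.0431). Leaving out iADKO 5 alone gave 0.30 for *Tagln*, 0.34 for *Des*, 0.67 for *Myh11* and 0.78 for *Cnn1*, and none of the 8 passed. Without iADKO 1, 5 of the 8 passed as higher, *Acta2*, *Myh11*, *Cnn1*, *Myl9* and *Des*, with log2 fold changes of 0.75, 1.14, 1.48, 0.75 and 0.80. In that fit 2078 of 16878 genes tested were higher and 2383 lower. *Rgs5* passed as lower without iADKO 6 (-0.36) or without fl/fl 5 (-0.34), and *Cnn1* passed as higher without iADKO 4 (1.43) and *Myh11* without fl/fl 3 (1.14).

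**Figure D2:**
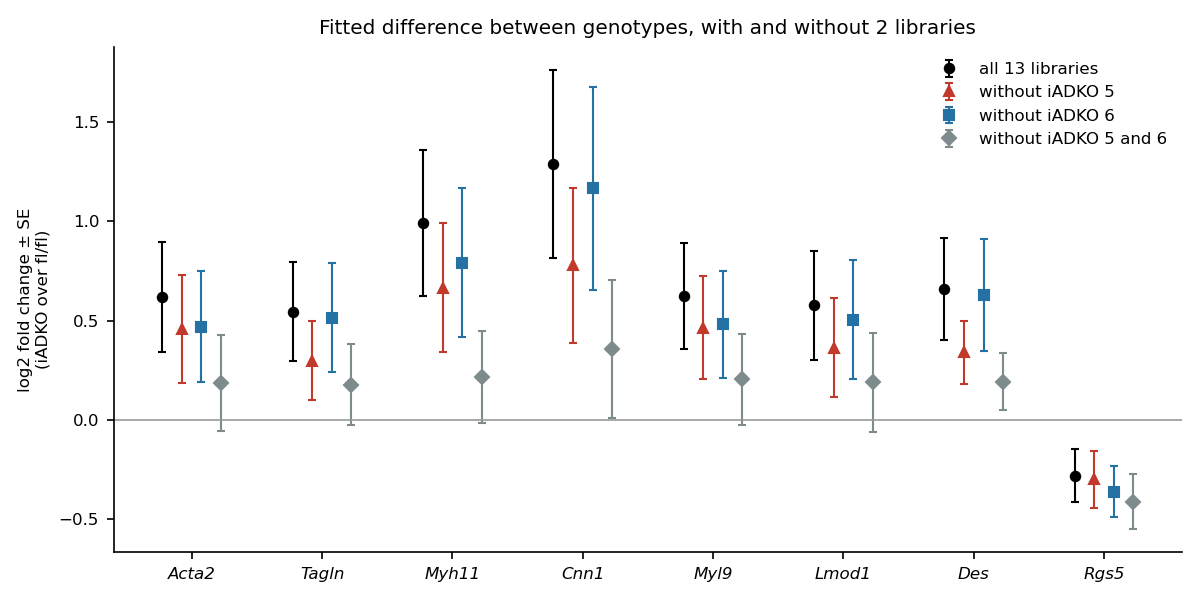
The vertical axis gives the fitted log2 fold change of iADKO over fl/fl ± SE for each gene, with all 13 libraries (circles), without iADKO 5 (triangles), without iADKO 6 (squares) and without both (diamonds). The 7 contractile genes lie at 0.54 to 1.29 with all libraries and at 0.18 to 0.36 without both, and *Rgs5* moves from -0.28 to -0.41.

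The numbers in the library names form separate runs, and both genotypes occur in only 2 of them. In the run 722 to 727 (fl/fl 4 and 5, iADKO 4 and 6), the differences of mean log2 CPM of the 7 contractile genes were between 0.58 for *Tagln* and 1.28 for *Cnn1*, and *Rgs5* differed by 0.19. In the run 747 to 765 (fl/fl 1 to 3, iADKO 1 and 2), the 7 differed in the other direction, from -0.061 for *Myl9* to -0.30 for *Lmod1*, with -0.094 for *Acta2*, -0.16 for *Myh11* and -0.19 for *Cnn1*, and *Rgs5* differed by -0.75. The first run holds iADKO 6 and fl/fl 5, the library highest but one and the library most often lowest, and the second holds neither of them nor iADKO 5. These within-run values have no test, and the labels do not say what the runs stand for.

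Levels can be compared between genes only per length, and for this the CPM were divided by the kilobases of annotated exon of each gene. In fl/fl the order of the means was *Tagln* (82.0 CPM per kb), *Acta2* (70.0), *Rgs5* (44.9), *Myl9* (44.3), *Myh11* (29.1), *Des* (14.1), *Cnn1* (7.60) and *Lmod1* (4.79). Every step of this order but one held in 7 of 7 fl/fl mice. The exception was *Rgs5* over *Myl9*, which held in 5 of 7, so the means of these neighbors did not differ beyond their spread. In iADKO the means were 120 CPM per kb for *Tagln*, 108 for *Acta2*, 68.3 for *Myl9*, 57.8 for *Myh11*, 37.0 for *Rgs5*, 22.2 for *Des*, 18.5 for *Cnn1* and 7.13 for *Lmod1*. *Rgs5* was thus below *Myl9* and *Myh11* by its mean, and it was above *Myl9* in 0 of 6 iADKO mice. The iADKO medians of *Rgs5* (36.1 CPM per kb) and *Myh11* (36.8) were close to each other. With the length of the canonical transcript in place of all annotated exons, *Myl9* (73.4) was also above *Rgs5* (66.9) in fl/fl.

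**Figure D3:**
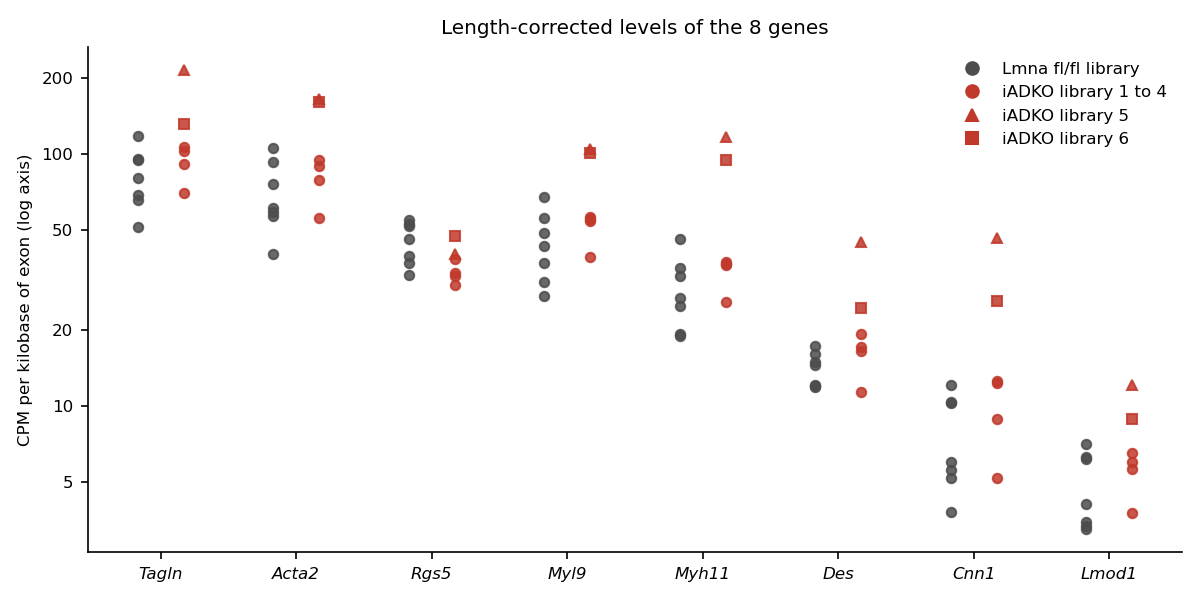
The log axis gives the level of each gene in CPM per kilobase of annotated exon, with 1 point per library and the genes ordered by their fl/fl mean. *Tagln* and *Acta2* are highest and *Cnn1* and *Lmod1* lowest in both genotypes, and *Rgs5* is the one gene whose iADKO points lie toward the lower end of its fl/fl points.

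The 7 contractile genes varied together from mouse to mouse. With each genotype's mean subtracted from the log2 CPM, Pearson's r over the 13 libraries was 0.81 to 0.98 for the 21 pairs (median 0.92), highest for *Acta2* with *Myl9*. Over the 11 libraries without iADKO 5 and 6, r was 0.67 to 0.96 (median 0.88). *Rgs5* was less alike to them, with r of 0.42 to 0.63 (median 0.55) over 13 libraries and 0.29 to 0.55 (median 0.44) over 11. These coefficients describe points that share their libraries, and no test was made.

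**Figure D4:**
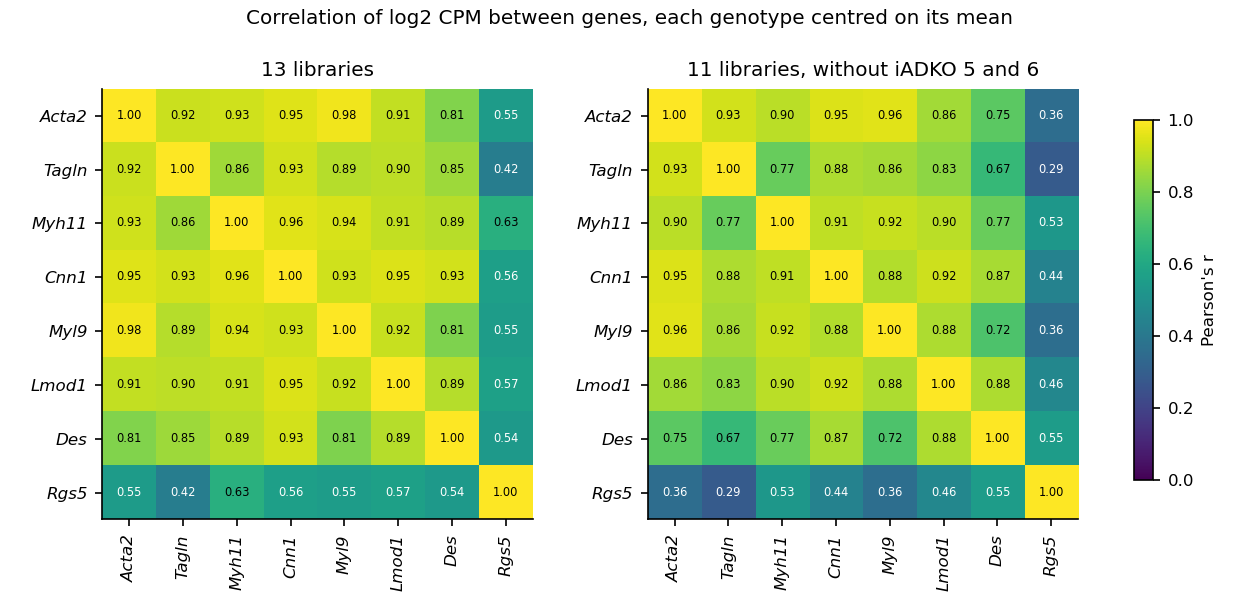
Each square gives Pearson's r between the log2 CPM of 2 genes after each genotype's mean was subtracted, over 13 libraries on the left and over 11, without iADKO 5 and 6, on the right. The block of 7 contractile genes keeps r of 0.67 or more in both panels, and the *Rgs5* row stays at 0.63 or less.

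Among 13846 genes whose log2 CPM averaged 1 or more, the 5 whose pattern was most like the mean of the 7 contractile genes were *Actg2* (r = 0.97), *Csrp1* (0.95), *Mylk* (0.94), *Ppp1r14a* (0.93) and *Sh3bgr* (0.92). The first of these encodes smooth muscle gamma-actin, *Csrp1* a LIM-domain protein that binds actin-crosslinking proteins, *Mylk* the kinase that phosphorylates the light chain and *Ppp1r14a* an inhibitor of the phosphatase that removes this phosphate. The 5 most like *Rgs5* were *Hsd11b1* (r = 0.94), *Plcb4* (0.93), *Dynll2* (0.91), *Micall1* (0.91) and *Uros* (0.91), none of which is in the lists of smooth muscle or mural genes used here. *Hsd11b1* encodes the enzyme that regenerates active glucocorticoid and *Plcb4* a phospholipase C downstream of G proteins. Over the 13 libraries, *Rgs5* had an r of 0.80 with the genotype-centered mean of the 16 pericyte and other mural genes. That mean had an r of 0.42 with the mean of the 7 contractile genes. For the adipocyte and macrophage lists, r with *Rgs5* was 0.75 and -0.77.

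Of 18 other contractile smooth muscle genes, 3 were higher in iADKO, none was lower and 15 did not pass, with a median log2 fold change of 0.41. The share of all genes tested that was higher was 14.1%, so 3 of 18 is near it. *Actg2* had the largest difference, at 9.62, 17.5 and 30.7 CPM (lowest, median, highest) in fl/fl and 10.8, 31.7 and 152 CPM in iADKO, a log2 fold change of 1.58 (SE 0.52, adjusted p = 0.0377). The 152 CPM was iADKO 5 and the next value, 70.4 CPM, iADKO 6, as for the 7 members. *Csrp1* (0.48, adjusted p = 0.0267) and *Pln*, the calcium pump inhibitor phospholamban (0.42, adjusted p = 0.0327), also passed. *Pln* was at 1.62 to 2.74 CPM in fl/fl and 2.48 to 3.39 CPM in iADKO and was not highest in iADKO 5. Among direct partners of the members, the genes that did not pass were *Mylk* (0.61, adjusted p = 0.141), *Tpm2* (beta-tropomyosin, 0.64, adjusted p = 0.0683) and *Smtn* (smoothelin, 0.11, adjusted p = 0.435). *Synm* (synemin, 0.66, adjusted p = 0.146), second by size, did not pass either. The lowest of the list were *Hspb6* (-0.13, adjusted p = 0.717) and *Cald1* (-0.06, adjusted p = 0.65). Without iADKO 5 and 6 the count was 0 of 18 and the median 0.07. With 1 library left out at a time, the count was 0 without fl/fl 1 or fl/fl 6, 1 without iADKO 6 and 6 without iADKO 1. Of all genes tested, 2078 of 16878 were higher without iADKO 1. *Actg2* itself no longer passed without iADKO 5 (0.93), without iADKO 6 (1.49) or without any fl/fl library other than replicate 3.

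The pericyte and other mural genes did not follow the direction of the contractile genes. Of 16, none was higher, 5 were lower and 11 did not pass, and the median was -0.12. Among all genes tested, 14.1% were higher and 16.3% lower. *Cspg4*, which encodes the pericyte surface proteoglycan NG2, was at 77.1, 131 and 156 CPM in fl/fl and at 66.6, 68.9 and 78.9 CPM in iADKO, a log2 fold change of -0.87 (SE 0.13, adjusted p = 0.00064). Its 6 iADKO values were tightly grouped, and 1 fl/fl library, replicate 5 at 77.1 CPM, lay among them. The others that were lower were *Heyl*, a Notch target (-0.54, adjusted p = 0.0343), *Ndufa4l2* (-0.50, adjusted p = 0.0411), *Mcam* (-0.43, adjusted p = 0.0315) and *Steap4* (-0.33, adjusted p = 0.0292). *Pdgfrb*, the receptor by which pericytes are recruited (0.03, adjusted p = 0.744), *Notch3* (0.10, adjusted p = 0.331) and *Gucy1a1* (0.15, adjusted p = 0.277) did not pass. Without iADKO 5 and 6, 4 of the 16 were lower, where 2647 of 17010 genes tested were lower, and *Cspg4* was at -0.88 (adjusted p = 0.00248). The count of genes lower was 1 without fl/fl 1, fl/fl 3, iADKO 4 or iADKO 5, and it was 2 without fl/fl 4, fl/fl 6, iADKO 1, iADKO 2 or iADKO 3 and 3 without fl/fl 7. With the run of library numbers as a block the count was 1 (*Cspg4*, -0.83, adjusted p = 0.0171), and without a filter on low counts it was 3. *Cspg4* passed in each fit with 1 library left out, at -0.96 to -0.82. Some of these genes are not particular to mural cells, and the part of other cells in them was not tested.

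Of 12 regulators of the program, 4 were higher, 2 were lower and 6 did not pass. Among all genes tested, 14.1% were higher and 16.3% lower, so 2 of 12 is near the share that was lower. *Srf* itself was at 34.8, 39.6 and 42.9 CPM in fl/fl and 39.5, 46.4 and 50.4 CPM in iADKO, a log2 fold change of 0.21 (SE 0.064, adjusted p = 0.0218), and *Mrtfa*, an actin-sensing SRF coactivator, rose by 0.32 (adjusted p = 0.0138). Unlike the contractile genes, *Srf* was not highest in iADKO 5 (42.2 CPM) or iADKO 6 (48.9 CPM), and its log2 fold change without them was 0.22 (adjusted p = 0.042). It no longer passed without iADKO 2 (0.18) or iADKO 3 (0.19), with the run of library numbers as a block (0.20, adjusted p = 0.125) or without a filter on low counts (adjusted p = 0.0592). *Myocd*, the myocardin gene, was at 1.29 to 4.45 CPM in fl/fl and 2.14 to 9.23 CPM in iADKO and did not pass (0.80, SE 0.37, adjusted p = 0.115), and its 2 highest values were those of iADKO 6 (9.23 CPM) and iADKO 5 (7.50 CPM). The forkhead factor gene *Foxf1* had the same pair on top, with 5.73 CPM in iADKO 5 and 5.35 CPM in iADKO 6 against at most 2.50 CPM elsewhere, and was higher in iADKO (1.11, SE 0.33, adjusted p = 0.0208), but not without the pair (0.38, adjusted p = 0.163) or without iADKO 5 alone (0.84), and not with the replicate number (adjusted p = 0.0502) or the run of library numbers (adjusted p = 0.232) as a block. *Tgfb1* was the other gene that was higher (0.38, adjusted p = 0.0092), and with the run as a block neither it (adjusted p = 0.0788) nor *Mrtfa* (adjusted p = 0.0745) passed. *Foxc2* (-0.69, adjusted p = 0.0109) and *Elk1* (-0.32, adjusted p = 0.00645) were lower, also with that block (adjusted p = 0.0183 and 0.0335).

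Cytoplasmic actin and myosin genes, which every cell expresses, were set beside the contractile set. Of 10, 6 were higher, 1 (*Myh10*) was lower and 3 did not pass, among them *Myl12b* (-0.039, adjusted p = 0.843), and the median was 0.24. The shares of all genes tested were 14.1% higher and 16.3% lower. *Actb* (0.47, SE 0.082, adjusted p = 0.00124) and *Actg1* (0.37, SE 0.070, adjusted p = 0.0021) did not overlap between genotypes. Of all 16753 genes tested, 454 did not overlap and were higher. *Actb* was at 1108 to 1428 CPM in fl/fl and 1498 to 1889 CPM in iADKO, and here iADKO 5 was the lowest of the 6 iADKO libraries. Without iADKO 5 and 6, 7 of the 10 were higher, where 2174 of 17010 genes tested were higher.

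**Figure D5:**
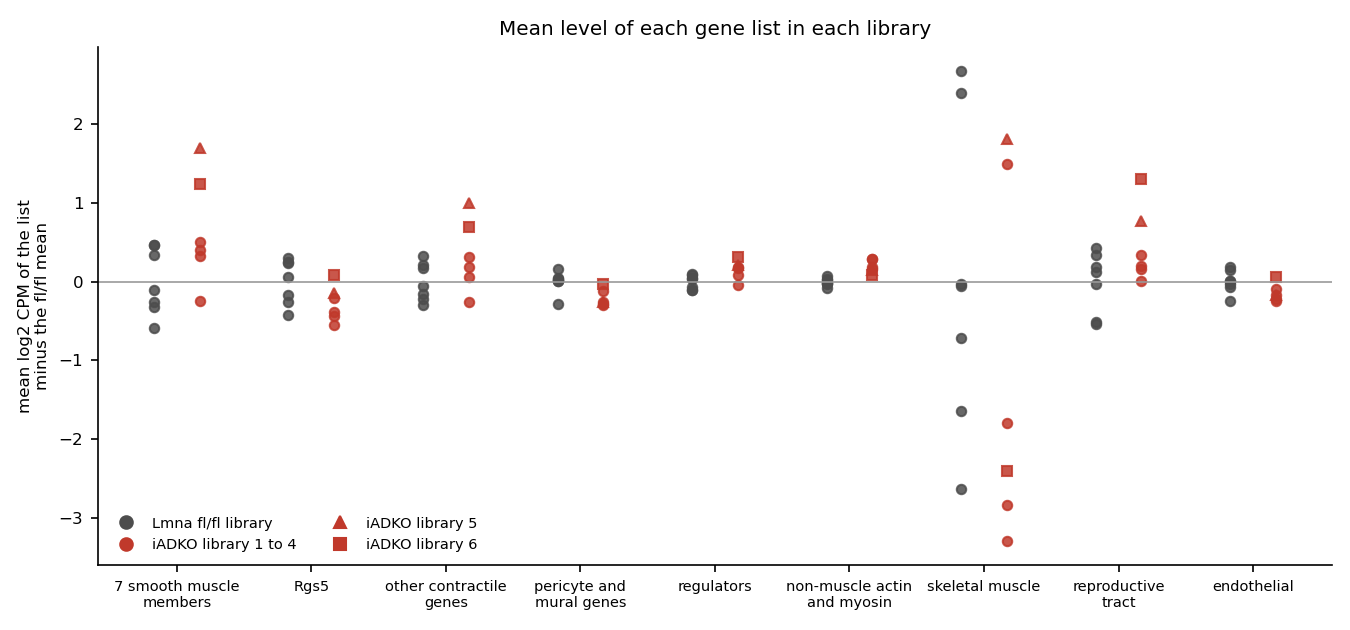
The vertical axis gives the mean log2 CPM of each list of genes in each library, minus the fl/fl mean of that list, with 1 point per library (fl/fl gray, iADKO red). The 2 contractile lists and the reproductive tract list place iADKO 5 (triangle) and 6 (square) well above the rest, and the regulators place them on top by a small margin (0.21 and 0.32, next 0.19). The mural and non-muscle lists do not, and skeletal muscle genes spread widely within both genotypes.

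Markers of other tissues that a dissected depot could carry were looked at beside these libraries. The 13 skeletal muscle markers summed to 24.9 to 625 CPM in fl/fl and 16.0 to 326 CPM in iADKO, with 0 of 13 past edgeR's test in either direction, also at an unadjusted p under 0.05. Their sum was 326 CPM in iADKO 5, the highest of its genotype, but 27.4 CPM in iADKO 6, and it was highest of all in fl/fl 5 (625 CPM), the library most often lowest in the contractile genes. Of the 12 uterus and reproductive tract epithelium markers, *Pax8* and *Wnt7a* were at 0 or 1 count in every library and were not tested. *Krt8* (1.12, adjusted p = 0.043) and *Krt18* (1.44, adjusted p = 0.0444) were higher in iADKO, with their highest values, 50.2 and 75.9 CPM, in iADKO 6 and their next highest, 23.1 and 22.8 CPM, in iADKO 5. *Oxtr*, which smooth muscle of the uterus expresses, was 0.249-fold its fl/fl level in iADKO (adjusted p = 0.00738), at 91.5 to 765 CPM in fl/fl and 42.6 to 110 CPM in iADKO. Which cells of these samples expressed *Oxtr*, *Krt8* or *Krt18* was not tested. *Cdh1*, the epithelial cadherin gene, had the highest log2 fold change of the list (2.42, adjusted p = 0.125), with 37.2 CPM in iADKO 6, and *Pgr* was at -0.43 (adjusted p = 0.537). Both keratin calls were lost without iADKO 5 (adjusted p = 0.0765 for *Krt8* and 0.0651 for *Krt18*), without iADKO 6 (0.0819 and 0.099) and without both (0.241 and 0.265). The list summed to 147 to 897 CPM in fl/fl and 153 to 380 CPM in iADKO, a sum that includes *Oxtr*, at a mean of 298 CPM in fl/fl and 74.4 CPM in iADKO. By its mean log2 CPM relative to fl/fl, which weighs the genes equally, iADKO 6 (1.31) and iADKO 5 (0.77) were the highest of the 13 libraries, the same pair as for the contractile genes, and the next was fl/fl 3 (0.43). The median log2 fold change of the list was 0.67, and its genotype-centered mean had an r of 0.61 with that of the 7 contractile genes over 13 libraries and 0.31 over the 11 without iADKO 5 and 6. None of the 7 mesothelial markers passed edgeR's test (1 at an unadjusted p under 0.05). The part of such tissue in the values of iADKO 5 and 6 was not tested.

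Of the 11 endothelial markers, 4 were lower in iADKO (*Kdr*, *Cdh5*, *Flt1* and *Egfl7*) and none was higher, and of the 7 arterial endothelial markers *Bmx* was higher and *Sema3g* lower. For all genes tested these shares were 16.3% lower and 14.1% higher. *Kdr*, the VEGF receptor of capillary endothelium, was the one endothelial gene whose genotypes did not overlap, at 162 to 238 CPM in fl/fl and 126 to 158 CPM in iADKO (-0.48, SE 0.086, adjusted p = 0.00151). Of all 16753 genes tested, 659 did not overlap and were lower. The genotype-centered mean of the endothelial list had an r of 0.52 with that of the 7 contractile genes and 0.57 with *Rgs5* over 13 libraries, and that of the arterial list 0.61 and 0.59. None of the 8 fibroblast and progenitor markers passed edgeR's test (2 higher and 1 lower at an unadjusted p under 0.05).

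Of the 100-base windows of the 8 canonical transcripts, the length of a read, 0 occurred in a transcript of another gene. Genes on the opposite strand overlap *Acta2* (*Stambpl1*, over 301 bases), *Tagln* (*Pcsk7* and Gm48529), *Cnn1* (*Elof1*), *Myl9* (5730471H19Rik) and *Des* (Gm15179). The library kit marks strand, but the counting setting is not given in the sources used here, so that reads of these partners and of the members cannot be told apart with certainty.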

How the data were processed

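The mRNA of whole pmWAT from 13 female mice was sequenced as strand-specific libraries, and per the labels reads were processed with FastQC 0.12.1 and STAR 2.7.11a on mm39. The counting tool and annotation are not given in the sources used here. The authors deposited raw counts per Ensembl gene, used here, and log2 values made from them by DESeq2's regularized log (rlog), which differed from rlog values recomputed here by at most 4.66e-08 and served as an alternative only.

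The labels gave each library's genotype and number. The libraries come from separately numbered samples, and p-values measure the spread between them. Same-genotype libraries differed beyond sampling noise (chi-square per degree of freedom of 8.16 to 88.8), so none was counted as a copy. In R 4.3.3, genes were filtered with filterByExpr and normalized by TMM, and genotypes were compared with the robust quasi-likelihood test of edgeR 4.0.16, adjusted by Benjamini-Hochberg over all 16753 genes at a threshold of 0.05. Standard errors were derived from each gene's log2 fold change and F. A prior count of 2 was used for log2 CPM. The members, lists and alternatives were chosen with earlier results of these data known. Of the contractile, mural, regulator, non-muscle and reproductive tract lists, the genes named are the 2 highest and 2 lowest log2 fold changes and direct partners of the members. Of other lists, and beyond this rule, called genes were named after their values were seen. Of the identifiers, 33184 were in GENCODE vM39, from which coordinates, exon lengths and transcript starts on GRCm39 were read with Python 3.11.15 and pysam 0.24.0. The alternatives were DESeq2's size factors, DESeq2 1.42.0 with its Wald test, a minimum of 10 counts per library, no filter at all, the replicate number or the run of library numbers as a block, limma 3.58.1 on the rlog values, a prior count of 0.5 and each library left out. The fit with the replicate number as a block left out fl/fl 7, which has no iADKO library of its number. The fits were tested on simulated counts. Totals of 18854223 to 19776491 counted reads per library gave each member 204 counts or more in every library.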

Additional observations from a re-analysis of the deposited data

How the results depend on the processing

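The 8 members were 0 higher and 0 lower in the fit described, and at least 10 counts in every library gave 2 higher (*Myh11* 1.00, adjusted p = 0.0495, and *Cnn1* 1.29, adjusted p = 0.0464) and the DESeq2 Wald test 2 higher (*Cnn1* 1.26 and *Des* 0.64). Leaving out iADKO 5 and 6 together gave 1 lower (*Rgs5* -0.41), where 2647 of 17010 genes tested were lower. With at least 10 counts, 2421 of 14939 genes tested were higher. With the Wald test, 2458 of 18621 genes with an adjusted p were higher. Leaving out 1 library at a time gave 0 to 5 members higher and 0 to 1 lower, 1769 to 3319 of all genes higher and 2216 to 3285 lower, and 16 to 26 listed genes higher and 16 to 25 lower. The log2 fold changes then ranged from 0.46 to 0.75 for *Acta2*, 0.30 to 0.66 for *Tagln*, 0.67 to 1.14 for *Myh11*, 0.78 to 1.48 for *Cnn1*, 0.46 to 0.76 for *Myl9*, 0.36 to 0.71 for *Lmod1*, 0.34 to 0.80 for *Des* and -0.36 to -0.23 for *Rgs5*. With the run of library numbers as a block, 784 genes were higher and 1202 lower, 4 listed genes were higher and 0 members passed, and 1 of the 16 pericyte and mural genes was lower. Without a filter, 15 listed genes were higher and 3 of those 16 lower. Within the run 747 to 765 the differences were -0.094 for *Acta2*, -0.072 for *Tagln*, -0.16 for *Myh11*, -0.19 for *Cnn1*, -0.061 for *Myl9*, -0.30 for *Lmod1*, -0.20 for *Des* and -0.75 for *Rgs5*, and within 722 to 727 *Rgs5* was at 0.19. The cause of these moves was not tested.

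The replicate numbers were not taken as pairs in the main fit. The residuals of same-numbered libraries correlated at -0.03 to 0.22 (mean 0.11), and over 0.1 in 3 of 6 pairs. For the other pairs the mean was -0.02, and 3 of 6 fl/fl libraries correlated best with their own number. These values do not settle whether the numbers mark pairs, so a fit with the replicate number as a block is also given. With that replicate number as a block and without fl/fl 7, 2379 of 16667 genes tested were higher and 2454 lower, and 0 members passed (*Acta2* 0.52, *Tagln* 0.48, *Myh11* 0.69, *Cnn1* 0.89, *Myl9* 0.50, *Lmod1* 0.45, *Des* 0.49, *Rgs5* -0.30), and 0 of the 18 other contractile genes passed, *Actg2* being at 1.03 (adjusted p = 0.28). The 3 calls among those 18 were also 0 with the run as a block, without a filter and without iADKO 5 and 6, and 5 with DESeq2. No member changed sign under the alternatives fitted to all libraries.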
